A study of Homo sapiens with 27 samples.

Results

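Cycling hypoxia was compared between an ovarian cancer line, SK-OV-3, and a melanoma line, WM793B, by the difference of their responses: the change from control to cycling hypoxia in SK-OV-3 cells minus the same change in WM793B cells. The comparison used 12 of the 27 Human Genome U133 Plus 2.0 arrays of the study, 3 for each line and culture, and described 19800 of the 54675 probe sets of each array, which remained after a filter on variation and covered 10021 genes. Control cells of both lines were kept at 21% oxygen for 72 h. Cells under cycling hypoxia spent the same 72 h in periods of 4 h or 12 h at 1% oxygen, interchanged with periods at 21% oxygen, and the last period was one of reoxygenation. SK-OV-3 cells grew in McCoy's medium with 10% fetal bovine serum, and WM793B cells in 2% Tu medium with 2% serum, bovine insulin and calcium chloride, so that line and medium cannot be told apart. Each line is a single established culture line bought from a repository, grown on glass, and the labels call the 3 arrays of a group biological replicas without saying whether the cultures were started separately. A positive difference means that the value changed upwards more, or downwards less, in SK-OV-3 than in WM793B cells. Values are log2 GC-RMA signals, on which 1 unit is a 2-fold change, and signals at or below 5 (log2) are called low here. This level marks dim signals and not absent ones: a noise level of 5 on the linear scale is 2.32 in log2, and 18173 of the 19800 probe sets had all 4 group means above that.

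The labelled origin of the lines was read from marker genes. In SK-OV-3 cells 12 of 16 epithelial markers on the array lay above 5, among them EPCAM and the keratins KRT18 and KRT19. MUC16 and GRHL2 were at the lowest value of the 12 arrays, 2.28. In WM793B cells SOX10, S100B and EDNRB of the melanocyte lineage were at 10.43, 11.32 and 10.79 in control cells, but the pigment genes MLANA, PMEL, TYR and TYRP1 were near the lowest value, and 5 of 12 melanocyte markers were above 5. Other markers went against the labelled origin or did not tell the lines apart: MITF was at 9.26 in SK-OV-3 and 8.38 in WM793B control cells, RAB27A at 8.10 and 7.92, and WT1 of the epithelial list at 4.00 and 6.80. None of the 13 markers of blood and endothelial cells on the array was above 5 in any of the 4 groups. Over the replicates of each group, the lowest correlation between arrays was 0.995.

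Cells that go back and forth between low and normal oxygen stabilise the HIF factors in the low periods and meet a burst of reactive oxygen on return. The NF-kB and AP-1 factors switch on chemokines, cytokines and their own inhibitors within hours of such stress. NRF2, released from its inhibitor KEAP1 by oxidants, binds the antioxidant response element and drives enzymes of glutathione, thioredoxin and NADPH supply, and genes of mitosis share a short element, the cell cycle genes homology region, through which they are held down in resting cells.

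The promoters of 6 genes are printed here because 3 sets of genes, the chemokines, the NRF2 targets and the mitotic genes, were among those with large differences between the lines, and each set has a well-known promoter element. The sequences are the 250 bases before the gene start on the strand of the gene, from RefSeq (GRCh38.p14), and capitals mark the match of the element on either strand. For NF-kB the letters searched were GGNNNTTCC, for the antioxidant response element TGACNNNGC and for the cell cycle genes homology region TTTGAA. Within each set, the called members with the largest differences whose window holds the element are shown. CXCL8 and CCL20 encode chemokines, and both windows hold the NF-kB letters.
CXCL8, chr4:73740319-73740568, plus strand: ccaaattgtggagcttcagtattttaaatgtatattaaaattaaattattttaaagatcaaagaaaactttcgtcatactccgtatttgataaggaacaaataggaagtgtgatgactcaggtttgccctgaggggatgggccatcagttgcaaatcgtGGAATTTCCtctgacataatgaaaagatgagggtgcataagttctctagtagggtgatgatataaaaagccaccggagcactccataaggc
CCL20, chr2:227813592-227813841, plus strand: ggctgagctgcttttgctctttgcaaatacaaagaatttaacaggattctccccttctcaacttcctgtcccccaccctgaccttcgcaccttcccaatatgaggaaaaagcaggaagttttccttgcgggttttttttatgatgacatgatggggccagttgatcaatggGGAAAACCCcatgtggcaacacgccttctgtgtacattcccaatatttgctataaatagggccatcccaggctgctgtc
ME1 encodes the malic enzyme that supplies NADPH, and GCLM the modifier subunit of the first enzyme of glutathione synthesis.
ME1, chr6:83431052-83431301, minus strand: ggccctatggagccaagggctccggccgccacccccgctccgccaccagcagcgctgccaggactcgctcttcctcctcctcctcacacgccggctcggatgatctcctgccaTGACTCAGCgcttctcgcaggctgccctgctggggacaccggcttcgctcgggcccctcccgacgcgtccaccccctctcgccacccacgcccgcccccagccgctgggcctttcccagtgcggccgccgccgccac
GCLM, chr1:93909431-93909680, minus strand: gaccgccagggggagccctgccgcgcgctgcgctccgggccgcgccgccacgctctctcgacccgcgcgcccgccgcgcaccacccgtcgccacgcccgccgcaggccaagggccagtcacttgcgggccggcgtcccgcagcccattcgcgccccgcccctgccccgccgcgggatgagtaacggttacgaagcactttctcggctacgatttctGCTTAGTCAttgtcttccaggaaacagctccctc
GTSE1 and DLGAP5 encode proteins of the mitotic spindle.
GTSE1, chr22:46296620-46296869, plus strand: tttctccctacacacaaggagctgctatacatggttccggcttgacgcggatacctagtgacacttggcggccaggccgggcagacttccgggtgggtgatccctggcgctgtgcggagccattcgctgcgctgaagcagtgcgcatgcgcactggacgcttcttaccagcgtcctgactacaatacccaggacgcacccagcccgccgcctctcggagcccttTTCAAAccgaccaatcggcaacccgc
DLGAP5, chr14:55191586-55191835, minus strand: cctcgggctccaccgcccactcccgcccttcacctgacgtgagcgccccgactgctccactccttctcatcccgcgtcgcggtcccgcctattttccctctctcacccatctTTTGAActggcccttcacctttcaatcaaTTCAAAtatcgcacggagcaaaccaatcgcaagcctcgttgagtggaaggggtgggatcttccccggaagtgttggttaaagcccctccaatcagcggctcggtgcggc
A window was at hand for 13 of the 19 measured cytokine and chemokine genes, and 8 of them held the NF-kB letters, against 17.2% of 27305 promoters of the same length. Of 15 NF-kB subunit and feedback genes with a window, 9 held them. TGACNNNGC stood in 4 of 14 NRF2 targets and in 3001 of the 27305 promoters. TTTGAA stood in 14 of 26 mitotic genes and in 13.7% of all promoters. A match describes the letters of this window and no binding of a factor.

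Taken over all probe sets tested, the responses of the lines to cycling hypoxia were nearly uncorrelated. Across the 19800 probe sets the responses of the lines had a Pearson correlation of 0.07, a description over probe sets that are not independent. The correlation was 0.09 over the 10591 with all 4 means above 5. Both values were taken over probe sets whether or not they responded, so they do not exclude shared responses. Some gene lists rose in both lines. HIF targets had median responses of 0.65 (SK-OV-3) and 0.92 (WM793B), and glycolytic genes 0.60 and 0.88. Responses of SK-OV-3 cells had an SD of 0.62 over the probe sets and those of WM793B cells one of 0.46, and the differences ran from -5.85 to 6.50 (log2) with a median standard error of 0.21. Limma's moderated test of the difference, adjusted by Benjamini-Hochberg over all probe sets, called 6254 probe sets of 4044 genes at an adjusted p under 0.05, which is 31.6% of those tested, of which 3445 had the higher response in SK-OV-3 cells and 2809 the lower one. With each array centred on its own median, which moved the median difference by -0.12, these were 2791 and 3759, so that the share of higher calls went from 55.1% to 42.6%. At least 2-fold differences numbered 2731, of which 1759 were higher (8.88% of the probe sets tested) and 972 lower (4.91%). Centred arrays gave 1449 and 1372 of them. The balance of higher and lower calls therefore depended on the scaling.

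**Figure D1:**
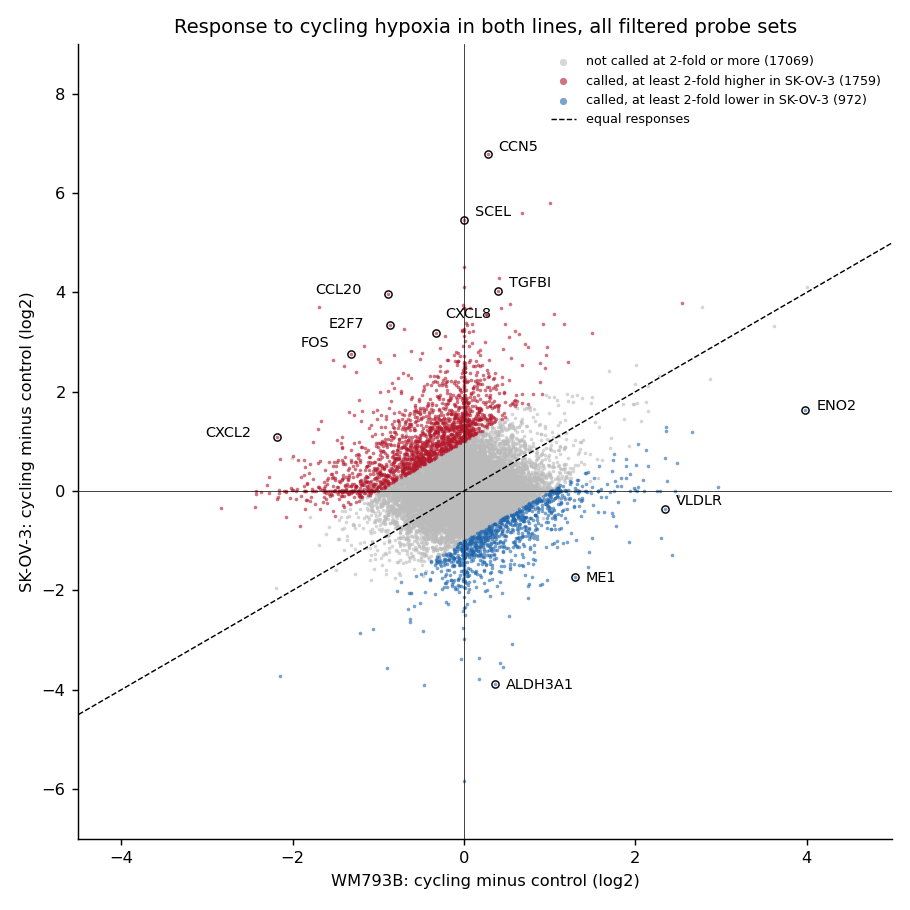
Change from control to cycling hypoxia (log2) in WM793B cells on the x axis and in SK-OV-3 cells on the y axis, 1 point for each of 19800 probe sets. Points on the dashed line responded equally in both lines, and the coloured points are the 1759 and 972 probe sets called with a difference of at least 2-fold.

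The called differences of at least 2-fold passed the test in SK-OV-3 cells alone more often than in WM793B cells alone. Responses of SK-OV-3 cells had the wider spread over all probe sets (SD 0.62 against 0.46). The share of all tested probe sets that passed in each line alone is not given here, so the counts describe the called ones only. A line that did not pass may still have changed. KIFC1, counted under SK-OV-3 alone, had a WM793B response of -0.89 (limma, adjusted p = 0.0705). Among the 1759 higher probe sets, 970 passed the test in SK-OV-3 cells alone, 380 in WM793B cells alone, 313 in both with opposite signs and 44 in both with the same sign, and 52 passed in neither line by itself. Among the 972 lower ones these counts were 506, 206, 202, 34 and 24. Opposite responses, with each line past the test in its own direction, were found for 774 probe sets at any size of difference, or 3.91% of those tested. All 4 group means lay above 5 for 813 of the 1759 with a higher response and 499 of the 972 with a lower one. Among the others, WM793B cells alone were low in both cultures for 293 and 180, SK-OV-3 cells alone for 247 and 96 and both lines for 175 and 100, and for 231 and 97 at least 1 group was low but neither line in both cultures. At 2.32 in place of 5, all 4 means lay above the level for 1594 and 896.

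Among the probe sets above 5 in all groups, the higher ones had started from a lower level in SK-OV-3 than in WM793B cells more often than all of them had. Of the 813 higher probe sets, 604 were below WM793B in control cells and 340 under cycling hypoxia, against 4856 and 4847 of all 10591 with 4 means above 5. Of the 499 lower ones, 151 were below WM793B in control cells and 350 under cycling hypoxia. The gap between the lines was narrower under cycling hypoxia than in control for 487 of the 813 (59.9%) and for 250 of the 499 (50.1%), against 51.4% of the 10591. These counts share the control arrays with the difference itself and are given as a description.

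Secreted inflammatory factors were higher in the SK-OV-3 response. Of 19 measured cytokine and chemokine genes, 10 were called higher and none lower, with a median difference of 0.95. Over the 10021 genes, each read by its brightest probe set, 18.8% were called higher and 15.8% lower, and the median was 0.01. These shares over all genes stand beside the counts of every list below. CXCL8, the neutrophil chemokine interleukin 8, whose promoter is printed above, was at 8.69, 8.53 and 9.42 in SK-OV-3 control cells and at 12.12, 12.25 and 11.86 in SK-OV-3 cycling cells, against 14.36, 14.25 and 14.29 in control and 14.07, 14.20 and 13.65 in cycling WM793B cells. All 3 cycling arrays of SK-OV-3 cells were far above their controls, and those of WM793B cells lay just below theirs. The WM793B values were near the top of the range, where the highest value of the 12 arrays is 15.52. The difference was 3.52 (SE 0.32, adjusted p = 5.72e-05), which is 11.5-fold. CXCL2, a chemokine of the same family, read 9.74, 9.79 and 10.55 in control and 11.29, 11.29 and 10.76 under cycling hypoxia in SK-OV-3 cells, and 10.46, 10.27 and 10.47 in control and 8.55, 8.87 and 7.24 under cycling hypoxia in WM793B cells. Here the groups did not overlap within either line and moved apart, with a difference of 3.26 (SE 0.54, adjusted p = 0.00139). The SK-OV-3 response by itself, 1.08, passed the test only narrowly (limma, adjusted p = 0.0497). The second probe set of CXCL2 had a difference of 1.86 and was not called, and the probe set read here is of a type that can also bind related transcripts.

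LIF, a cytokine of the interleukin 6 family, was at 6.93, 6.72 and 7.34 in SK-OV-3 control cells and at 8.90, 9.11 and 8.97 in SK-OV-3 cycling cells, against 8.88, 8.86 and 9.23 in control and 7.94, 8.16 and 7.94 in cycling WM793B cells. In control cells the WM793B arrays were the higher ones, and under cycling hypoxia the SK-OV-3 arrays were, with no overlap in either culture. The difference was 2.98 (SE 0.22, adjusted p = 2.27e-05). CCL20, the chemokine that attracts dendritic and T cells through CCR6, read 2.92, 3.29 and 3.59 in control and 7.13, 7.39 and 7.19 under cycling hypoxia in SK-OV-3 cells, and 8.70, 8.82 and 9.39 in control and 7.95, 8.27 and 8.01 under cycling hypoxia in WM793B cells. SK-OV-3 control cells were low, the difference was 4.86 (SE 0.29, adjusted p = 7.44e-06), and with values under 5 set to 5 it was 3.13. CXCL1, CXCL3, IL1A, IL6, IL11 and IL24 made up the rest of the 10, with differences from 0.60 (IL11) to 2.20 (CXCL1). The difference of IL24 came from WM793B cells, with a response of -2.10, while SK-OV-3 cells were low in both cultures.

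NF-kB subunits and feedback genes followed the same direction, with 10 of 19 called higher, 1 lower and a median of 0.78. Among them TNFAIP3 and NFKBIA, both brakes on NF-kB, had differences of 2.37 (SE 0.25, adjusted p = 0.000127) and 1.41 (SE 0.23, adjusted p = 0.00127). NFKBIZ, an atypical inhibitor that assists secondary targets, had 2.40 (SE 0.38, adjusted p = 0.00119), and the subunits NFKB1 and RELB 1.48 and 1.30. IRAK2, a kinase of the interleukin 1 receptor pathway, had the largest difference of the list, 3.67 (SE 0.23, adjusted p = 8.49e-06), from low SK-OV-3 control values of 4.28 to 4.94. RELA differed by 0.05 and ICAM1 by 0.02, and neither was called. TNIP2, an A20-binding protein, was the member called lower, at -0.50 (SE 0.10, adjusted p = 0.00387).

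Early response factors were higher in the SK-OV-3 response too. Of 18 AP-1 and early response genes 13 were called higher and none lower, with a median of 1.32. FOS, a subunit of AP-1, was at 8.46, 8.56 and 8.79 in SK-OV-3 control cells and at 11.82, 11.60 and 10.65 in SK-OV-3 cycling cells, against 6.09, 4.46 and 5.82 in control and 4.44, 4.08 and 3.90 in cycling WM793B cells. The SK-OV-3 cycling arrays were all above their controls, while the WM793B groups nearly touched, around or below 5, and the difference was 4.06 (SE 0.58, adjusted p = 0.000672), or 3.39 with values under 5 set to 5. JUNB had a difference of 2.21, FOSL1 2.12, MYC 2.09, KLF10 2.25, EGR3 1.96 and JUN 1.12. JUND, FOSL2 and ATF3 had differences of -0.05, -0.21 and -0.42 and were not called. Feedback inhibitors of the ERK kinases were called higher in 8 of 15 genes and lower in none (median 0.77), led by the phosphatase DUSP1 with 2.16 (SE 0.25, adjusted p = 0.000216). SPRY4, SPRY1 and DUSP6 had 2.02, 1.79 and 1.37. With arrays centred on their medians, 7 of these 15 were called higher and 1 lower.

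In the EGF receptor family, 5 of 13 measured genes were called higher and 1 lower (median 0.55), where 18.8% and 15.8% of all genes were. Of the 6 with all groups above 5 only ERRFI1, an inhibitor of the receptor, was called, at 1.26. Over all 6171 genes with all groups above 5, 1185 were called higher. HBEGF, a heparin-binding ligand, read 4.60, 4.70 and 4.73 in control and 6.79, 6.94 and 6.58 under cycling hypoxia in SK-OV-3 cells, and 3.95, 4.00 and 4.16 in control and 4.10, 4.73 and 4.08 under cycling hypoxia in WM793B cells. SK-OV-3 control cells and both WM793B groups were low, SK-OV-3 cycling cells were above 5, and the difference was 1.82 (SE 0.23, adjusted p = 0.000364). The ligands NRG1 and EREG had 1.52 and 1.09, with at least 1 of the 4 groups low. EGFR and ERBB2 had 0.43 and 0.42 and were not called. BTC, the ligand betacellulin, was called lower at -1.93 (SE 0.52, adjusted p = 0.018), and without the filter on variation the adjusted p by limma was 0.066. EPHA2, an ephrin receptor, was at 7.64, 7.54 and 7.58 in SK-OV-3 control cells and at 9.66, 9.85 and 9.65 in SK-OV-3 cycling cells, against 8.36, 8.28 and 8.55 in control and 8.66, 8.56 and 9.11 in cycling WM793B cells. The SK-OV-3 groups lay far apart and the WM793B groups next to each other, and the difference was 1.75 (SE 0.19, adjusted p = 0.00016). By the study's qRT-PCR, the rise under cycling hypoxia in SK-OV-3 cells was smaller than on the arrays for EPHA2, HBEGF, CXCL8 and urokinase PLAU. For CXCL2 it was larger. The study chose these genes as more affected by cycling than by chronic hypoxia. It lists EPHA2 and PLAU in SK-OV-3 cells as not reproduced by qRT-PCR.

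**Figure D2:**
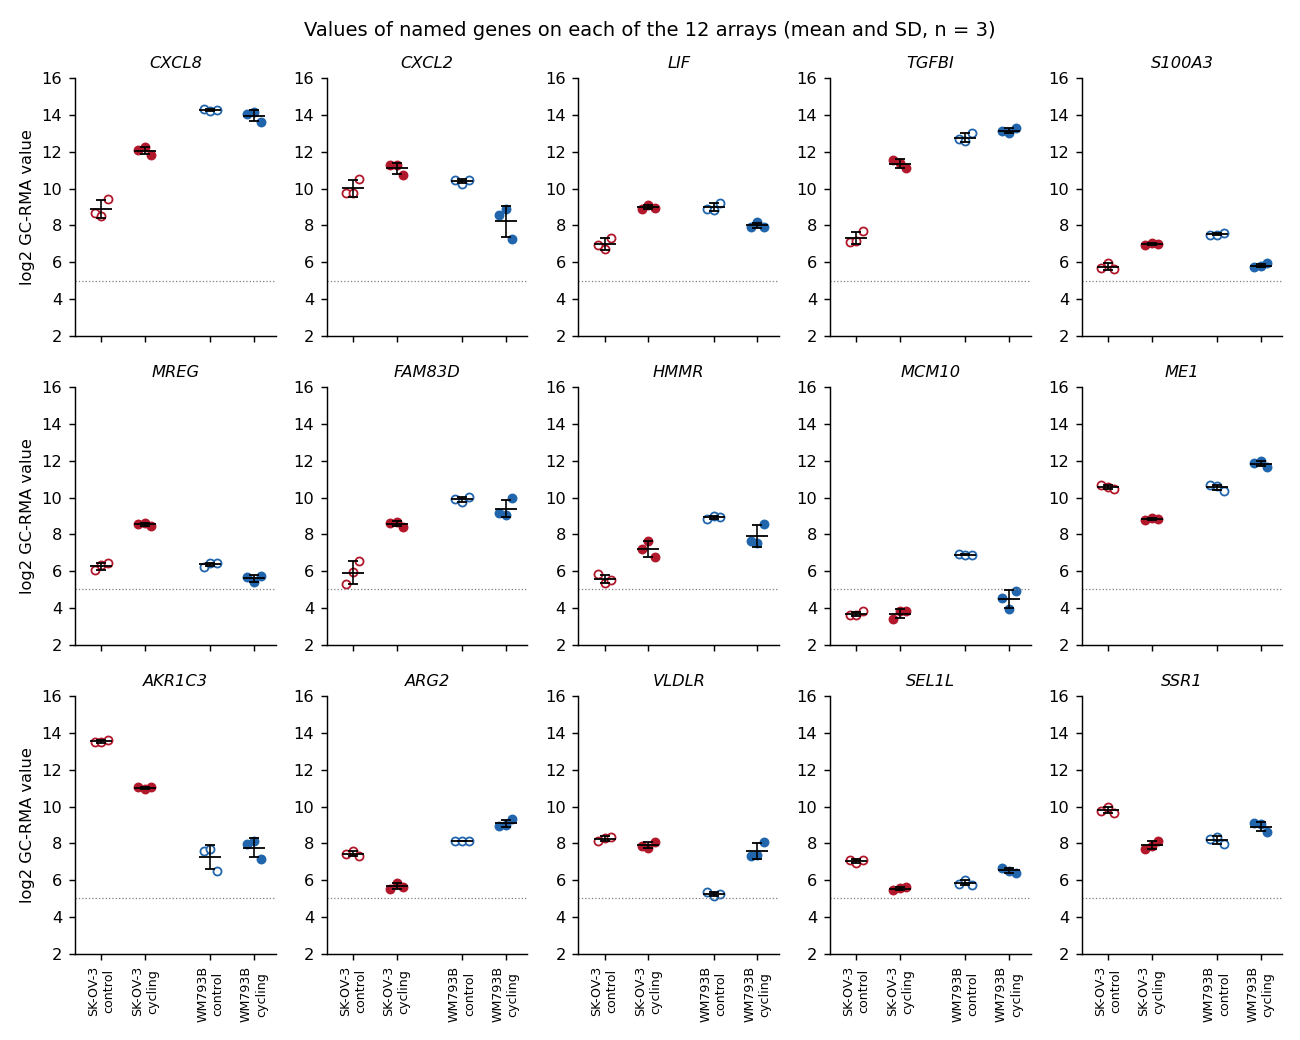
Log2 GC-RMA values of 15 named genes on the 12 arrays, with open circles for control and filled circles for cycling hypoxia, red for SK-OV-3 and blue for WM793B, and black bars for the mean and SD of 3 arrays. The dotted line is the level of 5 at or below which signals are called low, and CXCL2, LIF, S100A3, MREG, HMMR, ME1, ARG2, SEL1L and SSR1 passed the test in both lines with opposite signs. CXCL2 did so only narrowly in SK-OV-3 cells.

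Genes of the extracellular matrix and of its breakdown were also higher in the SK-OV-3 response. TGFBI, a matrix protein induced by TGF-beta, read 7.07, 7.18 and 7.71 in control and 11.58, 11.38 and 11.10 under cycling hypoxia in SK-OV-3 cells, and 12.69, 12.57 and 13.05 in control and 13.13, 13.05 and 13.31 under cycling hypoxia in WM793B cells. All SK-OV-3 cycling arrays were above their controls and still below every WM793B array, and the WM793B groups met at 13.05. Its difference of 3.64 (SE 0.27, adjusted p = 2.17e-05), or 12.5-fold, was the largest positive one among genes above 5 in all groups. CCN5, a secreted matricellular protein, was at 3.30, 3.91 and 3.94 in SK-OV-3 control cells and at 10.63, 10.45 and 10.40 in SK-OV-3 cycling cells, against 2.62, 2.29 and 2.62 in control and 2.80, 2.93 and 2.62 in cycling WM793B cells. WM793B cells were low in both cultures and SK-OV-3 cells in control. The difference of 6.50 (SE 0.24, adjusted p = 3.64e-07) was the largest positive one of all, with a response of 0.28 in the WM793B line, and it was 5.49 with values under 5 set to 5. Of 18 genes of the TGF-beta family and its targets 8 were called higher and none lower (median 0.78). INHBA, a subunit of activin, had 2.66 (SE 0.49, adjusted p = 0.00272). The inhibitors of differentiation ID1 and ID3 had 1.16 and 2.67 and were not called.

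Collagens and matrix proteins were called higher in 9 of 19 genes and lower in 1 (median 0.53, and 1.52 over the 11 with all groups above 5). THBS1, thrombospondin 1, had 2.62 (SE 0.26, adjusted p = 8.83e-05), COL1A1 2.08 (SE 0.22, adjusted p = 0.00012) and COL6A1 1.79 (SE 0.13, adjusted p = 2.17e-05). COL4A1 and COL4A2, chains of the basement membrane collagen, had 0.02 and 0.20 and were not called. FN1, fibronectin, was called lower at -0.78 (SE 0.16, adjusted p = 0.00528), and all 7 of its probe sets had negative differences. Integrins and laminins were called higher in 8 of 16 genes and lower in none (median 0.74), from LAMC1 and ITGA6 at 0.91 and 0.73 to ITGB3 and ITGB4 at 2.34 and 2.40. WM793B cells were low for ITGB4.

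The urokinase system and the metalloproteinases had 9 of 14 genes called higher and 1 lower (median 1.18). PLAU, the urokinase itself, read 9.97, 9.93 and 9.72 in control and 12.01, 12.11 and 11.67 under cycling hypoxia in SK-OV-3 cells, and 2.49, 2.49 and 2.42 in control and 2.69, 2.49 and 2.69 under cycling hypoxia in WM793B cells. WM793B cells were low in both cultures, with a response of 0.16, and the difference was 1.90 (SE 0.17, adjusted p = 5.26e-05). Its receptor PLAUR, above 5 in all groups, had 1.68 (SE 0.19, adjusted p = 0.000179). MMP1 and MMP2, a collagenase and a gelatinase, had 2.86 and 2.24 with all groups above 5, and MMP7, matrilysin, had 2.93 (SE 0.24, adjusted p = 3.33e-05) with WM793B cells low. TIMP2, an inhibitor of the metalloproteinases, was the member called lower, at -0.37 (SE 0.12, adjusted p = 0.0395). This call was lost without SK-OV-3 cycling array 1 or 2, SK-OV-3 control array 2 or 3, WM793B cycling array 1 or 3, or WM793B control array 1 or 2, with adjusted p from 0.0555 to 0.0859 by limma over all settings in which it was lost.

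Other genes with large differences had no common list. S100A3, a calcium-binding protein, was at 5.66, 5.96 and 5.63 in SK-OV-3 control cells and at 6.93, 7.07 and 6.99 in SK-OV-3 cycling cells, against 7.48, 7.49 and 7.59 in control and 5.74, 5.78 and 5.93 in cycling WM793B cells. The order of the lines turned over between the cultures, with no overlap in either, and the difference was 2.96 (SE 0.14, adjusted p = 2.15e-06). MREG, melanoregulin, which acts in organelle transport, read 6.04, 6.32 and 6.44 in control and 8.59, 8.61 and 8.45 under cycling hypoxia in SK-OV-3 cells, and 6.25, 6.42 and 6.43 in control and 5.68, 5.40 and 5.72 under cycling hypoxia in WM793B cells. The lines were alike in control cells and did not overlap under cycling hypoxia, and the difference was 3.05 (SE 0.17, adjusted p = 4.84e-06). SCEL, sciellin of the cornified envelope, and PTGS1, cyclooxygenase 1, had 5.46 and 4.92 with WM793B cells and SK-OV-3 control cells low, or 3.00 and 3.23 with values under 5 set to 5. ID4, an inhibitor of basic helix-loop-helix factors, and UCP2, a mitochondrial carrier, passed the test in both lines in opposite directions, with differences of 2.75 (SE 0.31, adjusted p = 0.000181) and 2.51 (SE 0.19, adjusted p = 2.42e-05).

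Genes of mitosis differed without exception. All 31 measured genes of mitosis and the spindle were called higher in the SK-OV-3 response and none lower, with differences from 1.16 (CENPA) to 3.17 (FAM83D) and a median of 2.00. FAM83D, which carries a kinase to the spindle, was at 5.30, 5.94 and 6.53 in SK-OV-3 control cells and at 8.65, 8.69 and 8.42 in SK-OV-3 cycling cells, against 9.94, 9.78 and 10.03 in control and 9.18, 9.08 and 9.96 in cycling WM793B cells. The SK-OV-3 groups did not overlap, while 1 WM793B cycling array was within the range of its controls, and the difference was 3.17 (SE 0.42, adjusted p = 0.000442). HMMR, a spindle-associated hyaluronan receptor outside the list, read 5.82, 5.36 and 5.52 in control and 7.20, 7.63 and 6.75 under cycling hypoxia in SK-OV-3 cells, and 8.83, 9.01 and 8.95 in control and 7.64, 7.53 and 8.58 under cycling hypoxia in WM793B cells. It was called in both lines with opposite signs, with a difference of 2.64 (SE 0.41, adjusted p = 0.000968). The kinesin KIFC1 and the kinetochore protein SPDL1, also outside it, had 2.90 (SE 0.45, adjusted p = 0.00104) and 2.42 (SE 0.19, adjusted p = 3.07e-05). CDK1, the mitotic kinase, had 2.20 (SE 0.27, adjusted p = 0.000267), and GTSE1 and DLGAP5, whose promoters are printed above, had 2.43 and 2.37. MKI67, the proliferation marker Ki-67, had a difference of 1.99. These are RNA levels. The study states that flow cytometry, with data not shown, found no cell cycle difference from control under either type of hypoxia.

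Array by array, the mitotic list moved in SK-OV-3 cells and less clearly in WM793B cells. Relative to the control mean of the line, the median of the 31 genes was 1.85, 1.83 and 1.30 on the SK-OV-3 cycling arrays and -0.52, -0.63 and 0.23 on those of WM793B. The WM793B cycling array 3 thus lay apart from the other two, while the SK-OV-3 cycling arrays were all above all WM793B arrays. Without it, the list still had 31 genes called higher. In DNA replication the pattern was the reverse, with the change in WM793B cells. Its list medians were 0.06, 0.10 and -0.11 on the SK-OV-3 cycling arrays and -1.22, -1.25 and -0.94 on the WM793B ones, and 24 of 34 genes were called higher and none lower (median 1.08).

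MCM10, a DNA replication factor, was at 3.62, 3.62 and 3.82 in SK-OV-3 control and 3.42, 3.82 and 3.82 in SK-OV-3 cycling cells. In WM793B cells it was at 6.91, 6.88 and 6.90 in control and 4.53, 3.95 and 4.94 under cycling hypoxia. SK-OV-3 cells were low in both cultures and alike, with a response of 0.00, and the difference was 2.42 (SE 0.30, adjusted p = 0.000297). The helicase subunits MCM2 to MCM7 were above 5 in all groups, and all 6 were called higher, from 0.75 (MCM3) to 1.81 (MCM4). PRIM1 and POLA2 of the primase complex had 1.91 and 1.15. PCNA, RPA1 and RFC5, also of the replication fork, had 0.26, 0.04 and -0.16 and were not called. Of 16 E2F factors and G1 regulators 7 were called higher and 1 lower (median 0.42), where 18.8% and 15.8% of all genes were. E2F7, a repressive E2F, read 4.28, 3.84 and 5.25 in control and 7.86, 7.87 and 7.68 under cycling hypoxia in SK-OV-3 cells, and 8.64, 8.93 and 8.66 in control and 7.71, 7.76 and 8.16 under cycling hypoxia in WM793B cells. SK-OV-3 control arrays straddled 5, and the difference was 4.22 (SE 0.41, adjusted p = 8.75e-05). The G1 cyclins CCNE1 and CCNE2 had 1.49 and 2.11, CCND1 1.05, and CDKN1B, the inhibitor p27, was called lower at -0.52 (SE 0.11, adjusted p = 0.00511).

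Of 14 p53 targets 2 were called higher and 2 lower (median 0.36), where 18.8% and 15.8% of all genes were. The oxidoreductase TP53I3 had 2.00 (SE 0.24, adjusted p = 0.000258), and RRM2B, a ribonucleotide reductase subunit, -0.76 (SE 0.16, adjusted p = 0.00505). The p53 target CDKN1A, p21, had -0.16 and was not called. Without the WM793B cycling array 3, 4 of the 14 were called higher.

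Interferon-stimulated genes were called higher in 14 of 24 and lower in none (median 1.12). OAS1, which makes the activator of RNase L, was at 6.36, 5.40 and 6.02 in SK-OV-3 control cells and at 7.31, 7.12 and 7.61 in SK-OV-3 cycling cells, against 5.38, 4.91 and 4.84 in control and 4.74, 3.79 and 4.29 in cycling WM793B cells. WM793B cells were around or below 5, and the difference was 2.19 (SE 0.41, adjusted p = 0.00291). With all groups above 5, the antiviral GTPase MX1 had 1.69 (SE 0.41, adjusted p = 0.0115), IFI6 1.85, IFIT3 1.62 and the ubiquitin-like ISG15 1.16. IRF1, IRF7 and OASL had -0.21, 0.10 and 0.05 and were not called. Without the filter on variation, 9 genes of the list were called higher. Metallothioneins, the small metal-binding proteins, were called higher in 6 of 7 genes, with a median of 1.76, and MT1M, with low signal, was not. MT1H read 6.86, 7.06 and 6.87 in control and 8.14, 7.99 and 7.53 under cycling hypoxia in SK-OV-3 cells, and 9.96, 9.95 and 10.67 in control and 9.06, 8.95 and 9.55 under cycling hypoxia in WM793B cells. The groups did not overlap within either line and moved in opposite directions, with a difference of 1.96 (SE 0.33, adjusted p = 0.00159), and MT2A had 1.95 (SE 0.29, adjusted p = 0.000741). Metallothionein genes are close copies of each other, and their probe sets may share signal.

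**Figure D3:**
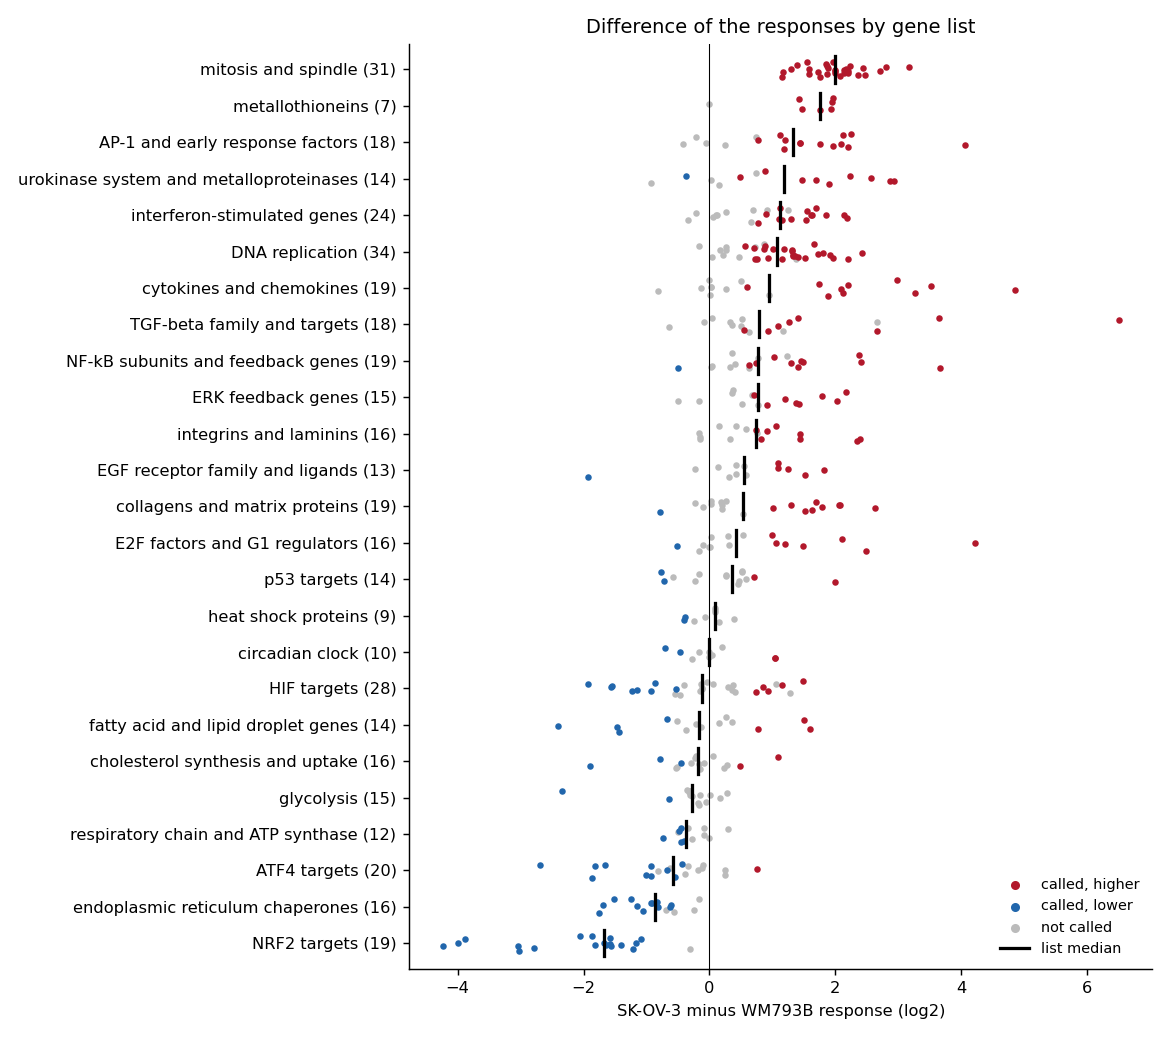
SK-OV-3 minus WM793B response (log2) of each measured member of 25 gene lists, 1 point per gene read by its brightest probe set, with the number of measured genes in parentheses and the list median as a black bar. All 31 mitotic genes lie right of 0 and all 19 NRF2 targets left of it.

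NRF2 targets had the lowest median difference of the 25 lists of cellular processes. Of 19 measured genes 18 were called lower and none higher, with differences from -0.31 (ABCC2, not called) to -4.23 (ALDH3A1) and a median of -1.67. ME1, whose promoter holds the antioxidant response element letters, was at 10.67, 10.56 and 10.45 in SK-OV-3 control cells and at 8.76, 8.91 and 8.83 in SK-OV-3 cycling cells, against 10.68, 10.61 and 10.39 in control and 11.90, 11.97 and 11.69 in cycling WM793B cells. The control arrays of the lines overlapped, the cycling arrays of SK-OV-3 cells were all lower and those of WM793B cells all higher, and the difference was -3.02 (SE 0.15, adjusted p = 2.39e-06), or 8.13-fold. GCLM read 9.76, 9.80 and 9.90 in control and 8.57, 8.60 and 8.61 under cycling hypoxia in SK-OV-3 cells, and 8.95, 8.88 and 9.07 in control and 9.92, 9.91 and 9.54 under cycling hypoxia in WM793B cells. Its groups also moved in opposite directions, by -2.05 (SE 0.15, adjusted p = 1.76e-05). AKR1C3, an aldo-keto reductase, was at 13.52, 13.51 and 13.63 in SK-OV-3 control cells and at 11.07, 10.98 and 11.06 in SK-OV-3 cycling cells, against 7.56, 7.69 and 6.48 in control and 7.99, 8.12 and 7.18 in cycling WM793B cells. Here the change lay in SK-OV-3 cells, the WM793B groups overlapped, and the difference was -3.04 (SE 0.44, adjusted p = 0.000724).

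AKR1C1 and AKR1C2 had -3.88 and -4.00, and the aldo-keto reductases are similar enough in sequence that their probe sets may share signal. ALDH3A1, an aldehyde dehydrogenase, had means of 8.39 ± 0.49 in control and 4.52 ± 0.34 under cycling hypoxia in SK-OV-3 cells and of 2.59 ± 0.10 and 2.95 ± 0.41 in WM793B cells (SD, n = 3). WM793B cells were low and so were SK-OV-3 cells under cycling hypoxia, and the difference was -4.23 (SE 0.38, adjusted p = 5.96e-05), or -3.39 with values under 5 set to 5. NQO1, the quinone reductase, had -1.67 (SE 0.15, adjusted p = 5.26e-05) and TXNRD1, thioredoxin reductase, -1.65 (SE 0.15, adjusted p = 5.43e-05). The ferritin light chain FTL had -1.57, the cystine carrier SLC7A11 -1.57 and the sulfiredoxin SRXN1 -1.57. SLC7A11 had responses of -0.01 (SK-OV-3) and 1.56 (WM793B), while for NQO1 they were -1.79 and -0.12. List medians relative to control were -1.59, -1.48 and -1.37 on the SK-OV-3 cycling arrays and 0.41, 0.61 and 0.39 on those of WM793B. The pseudogene NMRAL2P and SH3BGR were also among the largest differences with 1 line low, at -3.70 and -3.64, and with values under 5 set to 5 NMRAL2P had -0.44 and was not called (limma, adjusted p = 0.187).

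Genes of protein folding in the endoplasmic reticulum were lower as well. Of 16 measured chaperone and unfolded protein response genes, all above 5 in the 4 groups, 12 were called lower and none higher (median -0.87). SEL1L, an adaptor that sends misfolded proteins to degradation, had means of 7.04 ± 0.10 in control and 5.54 ± 0.10 under cycling hypoxia in SK-OV-3 cells and of 5.85 ± 0.13 and 6.53 ± 0.14 in WM793B cells (SD, n = 3). Its groups moved in opposite directions without overlap, by -2.17 (SE 0.14, adjusted p = 1.01e-05). SSR1, a subunit of the translocon-associated complex that lies in no list, read 9.78, 9.98 and 9.67 in control and 7.70, 7.87 and 8.15 under cycling hypoxia in SK-OV-3 cells, and 8.24, 8.34 and 7.94 in control and 9.08, 9.03 and 8.63 under cycling hypoxia in WM793B cells. The SK-OV-3 arrays went from above those of WM793B to below them, and the difference was -2.65 (SE 0.23, adjusted p = 4.95e-05). Its other probe sets had -2.41 and, for the brightest, -1.26, and both were called. HSPA5, the chaperone BiP, had -1.06 (SE 0.17, adjusted p = 0.00112), CANX, calnexin, -1.52 (SE 0.15, adjusted p = 9.92e-05) and CRELD2 -1.75 (SE 0.16, adjusted p = 6.85e-05). CALR, calreticulin, had -0.17 and was not called. With arrays centred on their medians, 14 genes of the list were called lower.

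Targets of ATF4, the factor of the amino acid response, were called lower in 10 of 20 genes and higher in 1 (median -0.58). VLDLR, a lipoprotein receptor, was at 8.11, 8.30 and 8.34 in SK-OV-3 control cells and at 7.84, 7.76 and 8.09 in SK-OV-3 cycling cells, against 5.34, 5.14 and 5.25 in control and 7.30, 7.38 and 8.09 in cycling WM793B cells. The WM793B groups did not overlap, the SK-OV-3 groups lay next to each other, and the difference was -2.70 (SE 0.26, adjusted p = 8.75e-05). DDIT3, the stress factor CHOP, had -1.87 (SE 0.43, adjusted p = 0.0085) and CTH, which makes cysteine, -1.82 (SE 0.18, adjusted p = 0.0001). ATF4 itself had -0.54 and was called, while TRIB3 and ASNS had -0.68 and -0.44. PSAT1, of serine synthesis, was called higher at 0.76 (SE 0.15, adjusted p = 0.00349). Of 9 measured heat shock genes 2 were called lower and none higher (median 0.08), with BAG3 at -0.40 (SE 0.11, adjusted p = 0.0207). Over all genes 15.8% were called lower and 18.8% higher. The heat shock co-chaperone DNAJB4, outside the list, was above 5 in all groups and had -2.23 (SE 0.16, adjusted p = 1.71e-05), with opposite responses. The nudix hydrolase NUDT16, the long non-coding RNA locus LOC100505715 and CPEB4, which binds the tails of mRNAs, had -2.44, -2.30 and -2.51.

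SCD, the stearoyl-CoA desaturase, was at 7.77, 8.40 and 7.45 in SK-OV-3 control cells and at 5.79, 6.09 and 5.26 in SK-OV-3 cycling cells, against 9.90, 10.03 and 9.54 in control and 10.52, 10.75 and 10.46 in cycling WM793B cells. SK-OV-3 cycling arrays were all below their controls, WM793B cycling arrays were all above theirs, and the difference was -2.91 (SE 0.37, adjusted p = 0.000366). The WM793B response by itself, 0.75, did not pass the test (limma, adjusted p = 0.0657). For the brightest SCD probe set the difference was -2.41, with a WM793B response of 0.31 (limma, adjusted p = 0.233). Of 14 genes of fatty acid synthesis and lipid droplets 3 were called higher and 4 lower (median -0.17), where 18.8% and 15.8% of all genes were, and G0S2, an inhibitor of fat breakdown, had 1.59 (SE 0.15, adjusted p = 7.63e-05) with WM793B cells low. Of 16 genes of cholesterol synthesis and uptake 2 were called higher and 3 lower (median -0.19). INSIG1, which holds back the sterol sensor, had -1.89 (SE 0.14, adjusted p = 2.17e-05) and the synthase HMGCS1 1.08 (SE 0.31, adjusted p = 0.0222). The call of HMGCS1 was lost without the SK-OV-3 cycling array 2 (0.97) or the SK-OV-3 control array 1 (0.97), and by limma with the replicate block (adjusted p = 0.0769), without the filter on variation (adjusted p = 0.0728) and with the variance of all 27 arrays (adjusted p = 0.0818). Its other probe set had 0.22 and was not called. ARG2, mitochondrial arginase, read 7.43, 7.60 and 7.30 in control and 5.53, 5.84 and 5.61 under cycling hypoxia in SK-OV-3 cells, and 8.13, 8.14 and 8.13 in control and 8.95, 9.02 and 9.31 under cycling hypoxia in WM793B cells. It moved in opposite directions, by -2.75 (SE 0.17, adjusted p = 7.72e-06). CYP1B1, a cytochrome P450 of the aryl hydrocarbon receptor pathway, did so too, with -2.95 (SE 0.34, adjusted p = 0.000217).

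Respiratory chain and ATP synthase genes had 5 of 12 called lower and none higher (median -0.37), with SDHD, a subunit of succinate dehydrogenase, at -0.74 (SE 0.14, adjusted p = 0.00355). With the variation filter set on the 12 arrays alone, 2 of these genes were called lower. In the circadian clock 2 of 10 genes were called higher and 2 lower (median -0.01), where 18.8% and 15.8% of all genes were. BHLHE41 had 1.04 (SE 0.22, adjusted p = 0.00541) and DBP -0.71 (SE 0.17, adjusted p = 0.0121).

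The HIF targets and the glycolytic genes, which respond to low oxygen in most cells, had small median differences. Of 28 measured HIF targets 5 were called higher and 8 lower (median -0.12), where 18.8% and 15.8% of all genes were. The list median was 0.65 for the SK-OV-3 response and 0.92 for the WM793B one. ERO1A, the oxidase of disulfide bond formation, was at 10.41, 10.42 and 10.23 in SK-OV-3 control cells and at 10.92, 11.02 and 10.79 in SK-OV-3 cycling cells, against 8.41, 8.60 and 9.04 in control and 11.05, 11.11 and 11.35 in cycling WM793B cells. Cycling arrays were above their controls in both lines, by more in WM793B cells, and the difference was -1.93 (SE 0.22, adjusted p = 0.000175). The other probe sets of ERO1A, also above 5 in all groups, had -1.01 and -0.58, and both were called. BNIP3L and BNIP3, receptors of mitophagy, had -1.56 (SE 0.14, adjusted p = 6.71e-05) and -1.15, and the glucose transporters SLC2A1 and SLC2A3 -0.93 and -1.56. On the other side PFKFB3, a regulator of glycolytic flux, had 1.49 (SE 0.19, adjusted p = 0.000321), DDIT4, an inhibitor of mTOR, 1.16 and NDRG1 0.73. VEGFA, P4HA1 and ADM had -0.54, 0.29 and 0.36 and were not called. Without the WM793B cycling array 3, on which the list median of the HIF targets was 1.21 against 0.63 and 0.61, 8 genes were called higher and 7 lower.

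Of 15 glycolytic genes 2 were called lower and none higher (median -0.28), where 15.8% and 18.8% of all genes were. ENO2, a neuronal enolase, read 3.55, 4.49 and 4.03 in control and 5.55, 5.62 and 5.79 under cycling hypoxia in SK-OV-3 cells, and 5.73, 5.57 and 6.02 in control and 9.71, 9.54 and 10.01 under cycling hypoxia in WM793B cells. It went up in both lines, further in WM793B cells, and with SK-OV-3 control cells low the difference was -2.35 (SE 0.31, adjusted p = 0.000429), or -3.33 with values under 5 set to 5. ALDOA had -0.65 (SE 0.10, adjusted p = 0.00107), and the differences of the 13 others lay between -0.36 and 0.28. The count of lower genes was 5 with centred arrays, 4 with values under 5 set to 5, 4 with a variance trend and 4 without the SK-OV-3 control array 1.

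**Figure D4:**
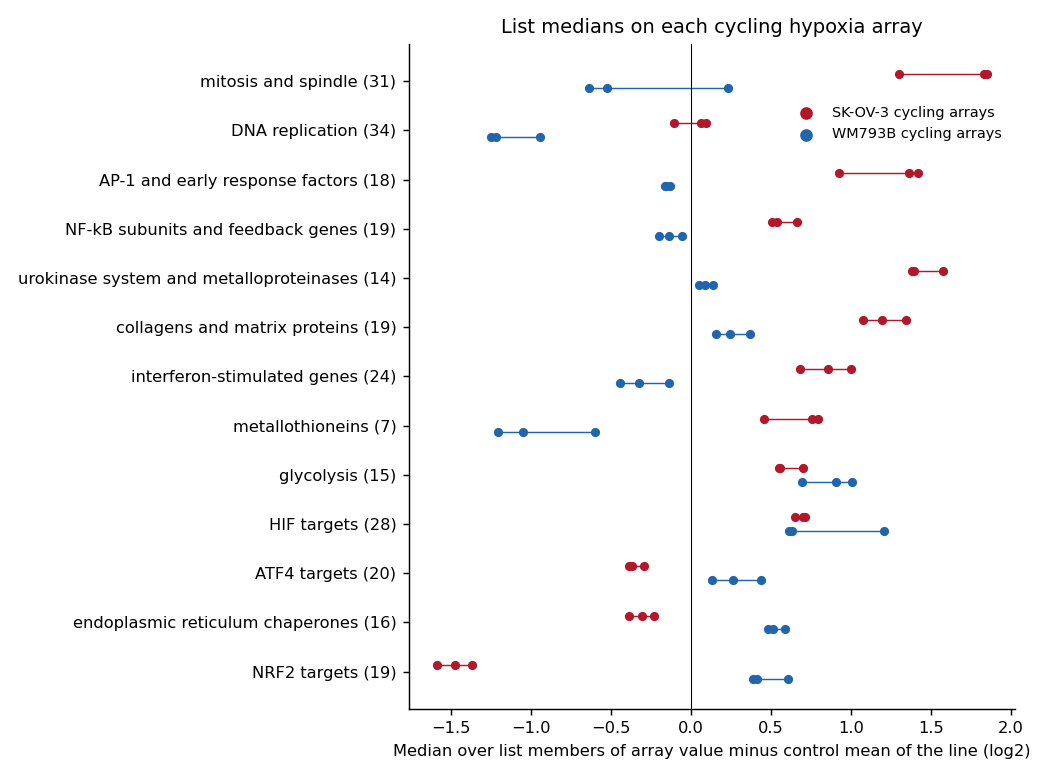
Median over the members of 13 lists of the array value minus the control mean of the same line (log2), 1 point for each cycling hypoxia array, red for SK-OV-3 and blue for WM793B, with lines from the lowest to the highest array. The arrays of the lines overlap for the glycolysis and HIF target lists and in no other list shown.

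Marker genes were read for the same differences. Epithelial markers had 4 of 15 called higher and 2 lower, where 18.8% and 15.8% of all genes were. Their median was near 0, and none of the 15 was above 5 in all 4 groups. KRT19 had 1.46 (SE 0.09, adjusted p = 8.56e-06), with WM793B cells low. On the log2 scale the summed signal of the 16 epithelial markers was 13.49 to 13.58 in SK-OV-3 control and 14.18 to 14.22 in SK-OV-3 cycling cells, and 8.08 to 8.20 and 8.27 to 8.45 in WM793B cells. The sum gives most weight to bright genes, and the markers did not move together in SK-OV-3 cells. From control to cycling means, KRT19 went from 10.70 to 12.16, KRT7 from 9.37 to 11.03 and KRT18 from 11.36 to 12.06. CDH1 went from 9.94 to 9.49 and ESRP1 from 7.83 to 6.84, and PAX8, CLDN3 and ELF3 also fell. Whether this shift of the sum has a part in the other differences was not tested. ELF3, an epithelial transcription factor, was called lower at -1.63 (SE 0.49, adjusted p = 0.0283). It lost its call without SK-OV-3 cycling array 2, SK-OV-3 control array 3, WM793B cycling array 2, or WM793B control array 1 or 3, with differences from -1.42 to -1.60. Epithelial genes called higher numbered 2 in 7 of the fits that leave out 1 array. Of 5 measured melanocyte markers only S100B was called, at 0.54 (SE 0.18, adjusted p = 0.0406), and its call was lost in 8 of the 12 fits that leave out 1 array. Blood and endothelial markers had 1 measured gene, PECAM1, with 0.19, and the reference genes EIF5 and CTBP1 had 0.21 and -0.04, none of them called.

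The prostate cancer line PC-3, whose 6 arrays were outside the fit, gives another response to set beside the difference, as a description. Over the 813 higher probe sets above 5 in all groups, SK-OV-3 cells had a median response of 0.98, WM793B cells one of -0.45 and PC-3 cells one of -0.03, and over the 499 lower ones -0.91, 0.45 and 0.21. PC-3 cells were nearer to SK-OV-3 than to WM793B cells for 227 of the former and 100 of the latter, against 4106 of all 10591 such probe sets. Among the lists, the cytokine and chemokine list had a median response of 1.06 in PC-3 cells, beside 0.35 for SK-OV-3 and -0.33 for WM793B, and CXCL8 a response of 2.71, nearer to SK-OV-3. PC-3 medians also lay nearer to SK-OV-3 in other lists. NF-kB genes had 0.67 in PC-3, beside 0.64 for SK-OV-3 and -0.15 for WM793B. AP-1 and early response genes had 0.65 beside 1.27 and -0.14, and metallothioneins 0.80 beside 0.65 and -0.99. The PC-3 medians of the lists that follow lay nearer to WM793B. Replication genes had -0.84 in PC-3 cells, where SK-OV-3 cells had 0.03 and WM793B cells -1.14, and mitotic genes 0.01, where these had 1.63 and -0.33. Interferon-stimulated genes had -1.29 in PC-3 beside 0.89 and -0.22, and NRF2 targets -0.01 beside -1.44 and 0.42.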

How the data were processed

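Total RNA of 27 cultures was hybridised to Human Genome U133 Plus 2.0 arrays. The deposited log2 values were made by the authors with GC-RMA (gcrma in R), which corrects the background by probe sequence, normalises all arrays together and gives 1 log2 value per probe set. Of all deposited values in the table, 32.7% stood at the lowest one, 2.28, and for arrays it is their number, 3 per group, that limits the precision. No column was left unmapped (0). Probe sets at least 1.5-fold from their median in at least 20% of the 27 arrays were kept, 19800 in all, of which 17314 had 1 gene symbol in the platform annotation, 811 several and 1675 none. Genes were named from the first kind only.

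The 12 arrays were fitted with limma 3.58.1 in R 4.3.3, with 1 mean per group, and the contrast of the responses was tested with eBayes and Benjamini-Hochberg adjustment over all 19800 probe sets. This stood in for the random variance t-test of the study's methods, which gives no such contrast. A probe set was called at an adjusted p under 0.05. Group means at or below 5 (log2) were called low. The level was taken from the noise level in the study's text, whose examples place it on the linear scale (2.32 in log2), so it is stricter than the study's and was kept as a mark of dim signals. P-values rest on the spread between the 3 arrays within each group, pooled over the 4 groups and moderated over the probe sets. A line at the lowest value on all its arrays, as for SCEL in WM793B and S100B in SK-OV-3 cells, had an SD of 0. Such a line lowers the pooled spread. The script was tested on simulated data. The named genes were, per gene by the probe set with the largest difference, the 8 highest and 8 lowest called ones with all 4 means above 5, the 3 and 3 with 1 line at or below 5, the 4 and 4 further ones with opposite responses, the leading called member of each list in each direction by its brightest probe set, and the genes of the study's qRT-PCR that had such a probe set. Other genes are named as list members, chosen after their values were seen. Genes in lists were read by the probe set with the highest mean over the 12 arrays. Members and lists were chosen with earlier results of these data known. The alternatives were no filter, the filter on the 12 arrays, dim probe sets left out, values under 5 set to 5, renewed quantile normalisation, centring on the median, the variance of all 27 arrays, a variance trend with robust estimation, a replicate block, the mean over probe sets and each array left out in turn.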

Additional observations from a re-analysis of the deposited data

Results flagged for a closer look

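The response to cycling hypoxia differed between SK-OV-3 and WM793B cells, by the test of the difference itself, for 6254 probe sets (limma, adjusted p under 0.05), and that test is what brought the following genes here. Among genes above 5 (log2) in all 4 groups, the differences (log2, SK-OV-3 minus WM793B response) were 3.64 for TGFBI, 3.52 for CXCL8, 3.26 for CXCL2, 3.17 for FAM83D, 3.05 for MREG, 2.98 for LIF, 2.96 for S100A3 and 2.90 for KIFC1. On the lower side they were -3.04 for AKR1C3, -3.02 for ME1, -2.95 for CYP1B1, -2.91 for SCD, -2.75 for ARG2, -2.70 for VLDLR, -2.65 for SSR1 and -2.51 for CPEB4. With 1 line at or below 5 they were 6.50 for CCN5, 5.46 for SCEL and 4.92 for PTGS1, and -4.23 for ALDH3A1, -3.70 for NMRAL2P and -3.64 for SH3BGR. Opposite responses gave 2.75 for ID4, 2.64 for HMMR, 2.51 for UCP2 and 2.42 for SPDL1, and -2.44 for NUDT16, -2.30 for LOC100505715, -2.23 for DNAJB4 and -2.17 for SEL1L. Groups of 3 arrays are too small for a test of single outlying arrays.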

How the results depend on the processing

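Under all planned settings the counts of called probe sets, of those with at least 2-fold differences and of opposite responses stayed within 1.5 times the values in the report. Called probe sets ranged from 5400 to 6225 when 1 array was left out, and opposite responses from 541 to 834. The other settings gave 5714 (values under 5 set to 5) to 6625 (variance of all 27 arrays) called probe sets. At least 2-fold differences ranged from 1872 (values under 5 set to 5) to 2859, against 2731. The replicate numbers showed no clear pairing of the SK-OV-3 arrays. There the correlation of same-numbered cycling and control arrays in their deviations from the group means was -0.06, 0.08 and -0.09. In WM793B cells it was 0.15, 0.08 and 0.29, and cycling arrays 1 and 3 correlated best with the control array of their own number. The WM793B cycling array 3 had -0.21 and -0.17 with control arrays 1 and 2. Whether the WM793B arrays of 1 number share an offset was not tested. With the replicate number as a block within each line, 6063 probe sets were called, 3377 higher and 2686 lower, 2683 of them at least 2-fold (1729 higher and 954 lower), and 708 had opposite responses. None of the 67 named probe sets changed its sign under the settings in which it was tested (63 of them with the filter on the 12 arrays); the mean over probe sets was read for list medians alone. The calls lost were those of BTC, HMGCS1, TIMP2, S100B, ELF3 and NMRAL2P, each under at least 1 setting, and the causes were not tested. Read by the mean of all its probe sets, the 1 measured blood and endothelial marker, PECAM1, had -0.0396 in place of 0.19, a value with no test. With values under a linear 5 (2.32 in log2) set to it, a setting chosen after seeing the data, 6272 probe sets were called, 2714 of them at least 2-fold, and all 67 named ones stayed on their side of the threshold. Low signals limit the CCN5, SCEL, PTGS1, ALDH3A1 and MCM10 values.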
